A study of Mus musculus with 19 samples.

Results

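The comparison set the livers of sham-treated mice on CDAHFD, a high-fat diet that lacks choline and is built from defined L-amino acids, against the livers of sham-treated mice on normal chow. It used 10 of the 19 liver RNA samples of the series, 5 per diet, chosen by their diet and treatment labels, and all 52110 of the 55335 table entries that carry a gene name. Every mouse was wild type (WT), and according to the labels the CDAHFD served to induce nonalcoholic steatohepatitis, a fatty liver with inflammation. The other 9 samples, 5 on chow and 4 on CDAHFD, came from mice given remote limb ischemic conditioning (RIC), in which blood flow to a limb is interrupted for short periods. They entered the fit to estimate the spread and were compared with the sham mice at the end. Strain, age, time on the diet, feeding state, hour of harvest and whether each sample was a separate animal are unknown from the sources used here; the p-values therefore describe variation among these samples, part of which may be technical.

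Choline is needed to make phosphatidylcholine, the main phospholipid of the lipoproteins with which the liver exports triglyceride. The liver can also make phosphatidylcholine by methylating phosphatidylethanolamine, a reaction that draws on the methionine cycle. Diets without choline cause fat to collect in hepatocytes, followed by inflammation and, with a high-fat diet, by fibrosis laid down by hepatic stellate cells. Mature hepatocytes express a large set of secreted and metabolic genes at very high levels, some of them in a sex-dependent way under the control of pulses of growth hormone.

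Values were FPKM (fragments scaled by transcript length and by the total of mapped fragments), a level per transcript length. A gene was tested if its mean over the 19 samples was at least 1 FPKM, which left 10577 genes. Differences are CDAHFD minus chow on the scale of log2(FPKM + 1), given with their standard error, and group levels are mean ± SD (n = 5 per diet). The p-values are from limma, two-sided and adjusted by the Benjamini-Hochberg method, and a gene was called at an adjusted p under 0.05; not called refers to values as deposited. Reads behind each value are unknown, because the table holds no counts and only 17.3 to 19.8% of the low values in the sham samples fell near whole numbers of reads.

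As deposited, 6762 of the 10577 genes were higher on CDAHFD, which is 63.9% of those tested, and 1090, or 10.3%, were lower. The median log2 difference over all tested genes was 0.45. After median-ratio scaling, which sets the median gene to no difference, that median was 0.00 and 3227 genes were higher and 3222 lower, so that 50% of calls were higher against 86.1% as deposited. A gene is therefore said to have risen or fallen only where it was called in the same direction both as deposited and after this scaling, which held for 3227 genes that rose (30.5% of those tested) and 1090 that fell (10.3%). Of the genes called as deposited, 1809 were at least doubled and 323 at least halved on the log2(FPKM + 1) scale, against 903 and 713 after scaling. The lowest CDAHFD value lay above the highest chow value for 5538 genes (52.4%), and the reverse held for 731 genes (6.91%). Every count over a gene list below is to be read beside these shares of all tested genes.

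The direction of the change followed the level of the gene. With genes binned by their mean in the conditioned chow mice, whose samples the difference does not use, 27.1% of the 6736 genes between 1 and 10 FPKM rose and 7.45% fell. The 1427 genes below 1 FPKM there could pass the filter only through the other groups, and 72.6% of them rose. Among the 320 genes between 100 and 1000 FPKM, 9.06% rose and 45.9% fell. Of the 68 genes at 1000 FPKM or more, 10.3% rose and 54.4% fell. The 100 most abundant genes held 67.7 to 70.2% of all FPKM in the chow samples and 60.1 to 63.0% in the CDAHFD samples. Between 9122 and 9503 named genes were at 1 FPKM or more in the chow samples, and between 11204 and 11624 in the CDAHFD samples.

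**Figure D1:**
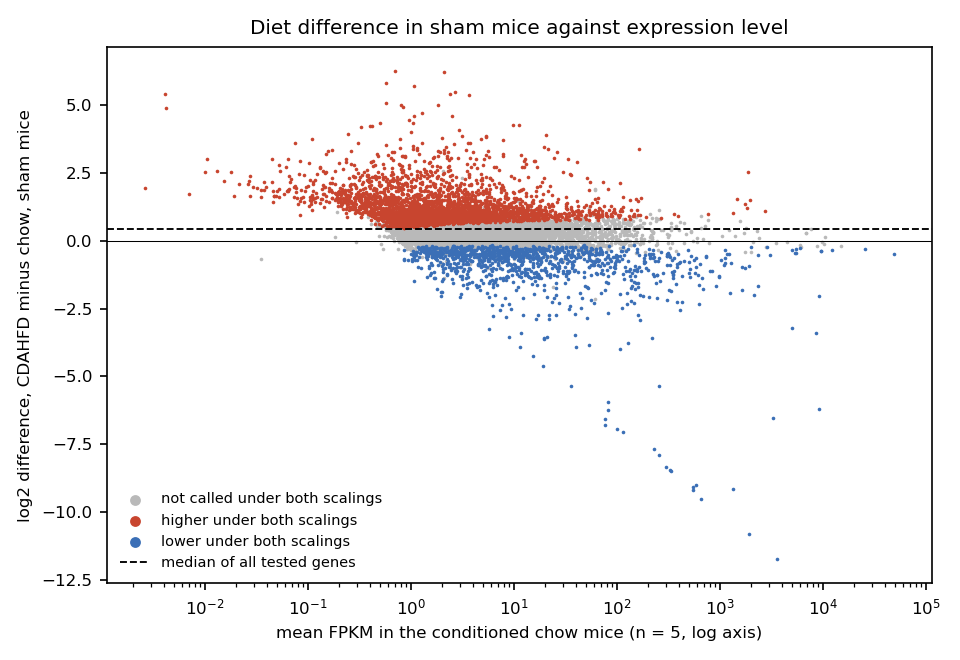
Log2 difference between CDAHFD and chow in sham mice (vertical axis) against the mean FPKM in conditioned chow mice (horizontal log axis), 1 point per tested gene, coloured by its call under both scalings; 6 genes at 0 in conditioned chow are not drawn. The dashed line at 0.45 is the median of all tested genes; genes that rose lie mostly at low levels, and most of the genes at 1000 FPKM or more that were called had fallen.

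The first principal component of the sham samples held 82.7% of the variance and separated the diets. The second held 4.44% and set CDAHFD samples 2 and 5 (-22.9 and -14.6) apart from CDAHFD samples 1, 3 and 4 (20.2, 8.0 and 8.44). Without these 2 samples, 3101 genes rose and 1213 fell. All 10 sham samples carried Y-linked transcripts (Ddx3y at 14 to 21.5 FPKM on chow and 12 to 15.2 FPKM on CDAHFD) with Xist at or below 0.0205 FPKM, so every library was of male origin. The samples had the profile of liver: Alb, serum albumin, was at 27316, 35836, 39018, 38822 and 33154 FPKM on chow and 21529, 28133, 22810.1, 24943 and 26229 FPKM on CDAHFD. Pancreatic Prss1 was listed at 0 in all 10 sham samples, as were fat-cell Adipoq and Ckm of skeletal muscle except for at most 0.0734 FPKM of Ckm in a single sample. Other members of this list of other tissues were above 0, such as Cfd at 0.766 FPKM in chow sample 5. The 16 members summed to 3.52 to 5.77 FPKM on chow and 3.51 to 4.39 FPKM on CDAHFD. Only 1 of them passed the filter, and it was not called (-0.05 as deposited and -0.51 after scaling). Of the 5 tested red cell genes, 4 fell, among them Hbb-bs, a beta globin (-1.12 ± 0.32), and Alas2, the erythroid enzyme of heme synthesis (-1.59 ± 0.17). Their part in the other results was not tested.

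The genes that male mouse livers express more than female livers fell on CDAHFD. All 22 tested members of a list of 26 male-biased genes fell (median log2 difference -3.2 as deposited and -3.63 after scaling), and none of them overlapped between the diets. The gene lists share members. The 22 include Alas2 (-1.59 ± 0.17), counted above among the red cell genes, and C6 (-2.09 ± 0.27), which also appears below with the complement genes. The smallest fall was of Gstp1, a glutathione transferase (-0.79 ± 0.22), which stayed abundant at 193 FPKM. Elovl3, a fatty acid elongase (chr19:46131897-46135694, plus strand), was at 280, 190, 152, 108 and 149 FPKM on chow and 1.09, 0.413, 0.178, 0.873 and 0.257 FPKM on CDAHFD. Every CDAHFD sample lay far below the lowest chow sample, and the mean was 313-fold lower (log2 difference -6.79 ± 0.28, adjusted p = 3.26e-13). Slco1a1, an importer of organic anions (chr6:141907282-141946962, minus strand), was at 83.6, 104, 83.3, 109 and 85.3 FPKM on chow and 0.339, 0.201, 0.229, 0.246 and 0.166 FPKM on CDAHFD. The chow mice lay close together and every CDAHFD mouse was under 1 FPKM (log2 difference -6.24 ± 0.16, adjusted p = 8.24e-17). Other members that fell included Ugt2b38, a glucuronosyltransferase with close paralogs (-5.95 ± 0.14), Cyp7b1, an oxysterol hydroxylase (-3.85 ± 0.31), Cyp4a12a, a fatty acid hydroxylase (-3.76 ± 0.25), Hsd3b5, a steroid dehydrogenase (-3.55 ± 0.20), and Selenbp2, a selenium-binding protein (-3.48 ± 0.47). Major urinary proteins, pheromone carriers that male livers secrete in bulk, held 5.31 to 6.17% of all FPKM on chow and 0.310 to 0.549% on CDAHFD. Single Mup genes, and Serpina1e (-6.55 ± 0.16), share reads with near-identical copies and are uncertain one by one.

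Genes expressed more in female livers moved less uniformly. Of 19 tested members, 10 rose and 3 fell (median log2 difference 1.12 as deposited and 0.95 after scaling). Cyp2b9, a cytochrome P450 (chr7:26173411-26210661, plus strand), was at 0, 0.0779, 0, 0 and 0 FPKM on chow and 42.9, 72.2, 62.2, 45 and 62.1 FPKM on CDAHFD. It was listed at 0 in 4 of the 5 chow samples and was above 40 FPKM in every CDAHFD sample (log2 difference 5.81 ± 0.29, adjusted p = 4.11e-12). Cyp2a4, a testosterone hydroxylase with a near-identical paralog, was at 0, 2.79, 0, 0.17 and 0 FPKM on chow and 94.9, 101, 109, 80.3 and 129 FPKM on CDAHFD (log2 difference 6.25 ± 0.36, adjusted p = 2.48e-11). The transporter Slc22a27 also rose (3.6 ± 0.13). In contrast Cyp2c69 (-2.74 ± 0.29), Cyp2c40 (-1.99 ± 0.29) and Cyp17a1, an androgen-producing enzyme (-1.6 ± 0.40), fell although they are on the same list, and Cyp3a44 was not called (0.10 ± 0.17).

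Growth hormone acts on hepatocytes through its receptor Ghr, the kinase Jak2 and the transcription factors Stat5a and Stat5b. Ghr (chr15:3317760-3583492, minus strand) was at 38.8, 38, 49, 37.6 and 41.5 FPKM on chow and 20.5, 22.4, 18.8, 21.4 and 23.1 FPKM on CDAHFD. The diets did not overlap and the mean was 1.93-fold lower (log2 difference -0.91 ± 0.11, adjusted p = 4.02e-07). Igf1, the circulating growth factor that growth hormone induces, was at 84.1, 84.5, 83.1, 72.7 and 85.6 FPKM on chow and 51.4, 48.4, 45.8, 63.4 and 44.8 FPKM on CDAHFD, also without overlap (log2 difference -0.69 ± 0.14, adjusted p = 0.000168). Jak2 (0.87 ± 0.12), Stat5a (0.76 ± 0.08), Ptpn1, a tyrosine phosphatase (1.18 ± 0.10), and Igfbp3, an Igf1 carrier (1.77 ± 0.20), rose. Stat5b was higher as deposited only (0.34 ± 0.11, against -0.15 after scaling). Socs2 of the same list was also higher as deposited only (0.79 ± 0.23, against 0.45 after scaling, adjusted p = 0.104). Cish was below the level tested, at 0.197 to 0.55 FPKM on chow and 0.841 to 2.23 FPKM on CDAHFD. Over the list of 13 tested genes, 4 rose and 2 fell, beside 30.5% and 10.3% of all tested genes. The list median was 0.54 as deposited and 0.13 after scaling.

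Most transcription factors that set hepatocyte identity did not change under both scalings. Of 23 tested factors, 4 fell, 1 rose and 18 did neither (median log2 difference 0.09 as deposited and -0.44 after scaling). Of all tested genes 10.3% fell and 30.5% rose. Ppara, the fatty acid receptor that drives fat oxidation, fell the most, from 17 ± 2.98 FPKM on chow to 7.35 ± 2.53 FPKM on CDAHFD (log2 difference -1.14 ± 0.20, adjusted p = 4.22e-05). Hnf4a, a master regulator of hepatocyte genes (-0.37 ± 0.11), and the bile acid receptor Nr1h4 (-0.39 ± 0.10) fell by less. The single factor that rose, Dbp, is also an output of the circadian clock. More genes fell than rose at both ends of the liver lobule; in what follows, paired medians are log2 differences as deposited and after scaling. Among 26 tested genes of the pericentral end 13 fell and 2 rose (medians -0.30 and -0.85), and among 24 of the periportal end 14 fell and 4 rose (medians -0.47 and -1.04). The glutamine synthetase Glul, the classical marker of the cells around the central vein, was not called (0.26 ± 0.14; 0.34, adjusted p = 0.0347, without CDAHFD sample 2), whereas the alcohol-metabolizing Cyp2e1 (-0.53 ± 0.13) and periportal Cyp2f2 (-2.0 ± 0.22) fell.

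**Figure D2:**
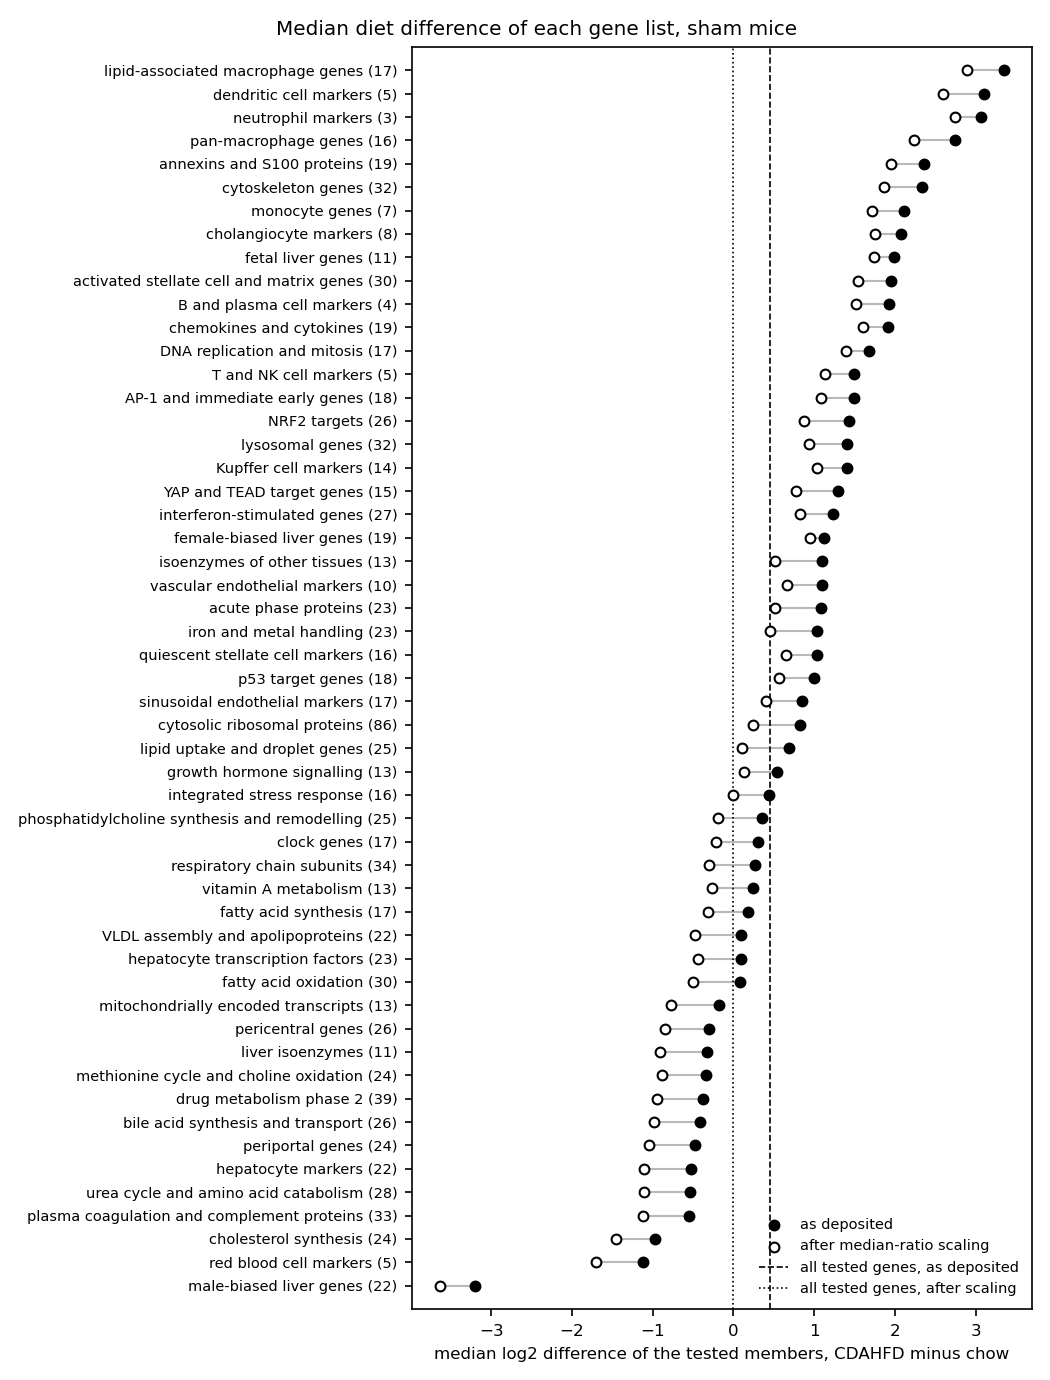
Median log2 difference (horizontal axis) of the tested members of each gene list with 3 or more tested members, whose number stands in parentheses; filled points are values as deposited, open points after median-ratio scaling, and vertical lines the medians of all tested genes (0.45 and 0.00). Male-biased genes lie lowest at -3.2 and lipid-associated macrophage genes highest at 3.35.

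In phosphatidylcholine synthesis, steps of the salvage of choline and of diglyceride supply were lower, and the methylation enzyme was not. Lpin1, lipin 1, which makes the diglyceride used for phosphatidylcholine and triglyceride (chr12:16535669-16610966, minus strand), was at 20.6, 20.2, 19.6, 16.9 and 17.4 FPKM on chow and 2.47, 1.36, 1.81, 1.35 and 1.55 FPKM on CDAHFD. Its mean was 11.1-fold lower and the diets lay far apart (log2 difference -2.89 ± 0.24, adjusted p = 4.12e-09). Gpcpd1, which releases choline from glycerophosphocholine, was at 18.2, 31.1, 41.3, 26.9 and 34.6 FPKM on chow and 10.4, 19.4, 5.01, 6.97 and 5.97 FPKM on CDAHFD. CDAHFD sample 2 at 19.4 FPKM overlapped the lowest chow sample, and the difference was called (log2 difference -1.68 ± 0.32, adjusted p = 0.000104). Chpt1, the choline phosphotransferase of the last step, was at 23.6, 23, 24.2, 24.8 and 24 FPKM on chow and 12, 14.6, 10.1, 11.8 and 14.7 FPKM on CDAHFD, without overlap (log2 difference -0.88 ± 0.10, adjusted p = 1.88e-07). Pemt, which methylates phosphatidylethanolamine (chr11:59970614-60046489, minus strand), was at 66.6, 59.4, 60.8, 58.7 and 55.7 FPKM on chow and 91.5, 93.8, 92.2, 101 and 106 FPKM on CDAHFD. All 5 CDAHFD values were above all chow values (log2 difference 0.68 ± 0.09, adjusted p = 1.36e-06), but after scaling the difference was 0.10 (adjusted p = 0.364), so it was higher as deposited only. Over the 25 tested genes of this list, 5 rose and 4 fell (median log2 difference 0.35 as deposited and -0.19 after scaling), beside 30.5% and 10.3% of all tested genes. The remodelling acyltransferase Lpcat2 (1.47 ± 0.11) and the choline-transporter-like Slc44a3 (1.2 ± 0.10) rose, and Chka, choline kinase alpha, was not called (0.03 ± 0.16).

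More fell than rose among the enzymes that turn choline into betaine-derived methyl groups and run the methionine cycle. Of 24 tested genes, 12 fell and 3 rose (median log2 difference -0.34 as deposited and -0.88 after scaling). Bhmt, which remethylates homocysteine with betaine, the oxidation product of choline (chr13:93616675-93637961, minus strand), was at 2080.4, 1612, 1914, 668 and 1219.7 FPKM on chow and 522, 480, 351, 613 and 312 FPKM on CDAHFD. Chow samples varied widely, and the lowest of them was still above every CDAHFD sample (log2 difference -1.65 ± 0.28, adjusted p = 2.73e-05). Gnmt, which consumes S-adenosylmethionine, fell from 629 ± 74.3 FPKM on chow to 188 ± 50.1 FPKM on CDAHFD (log2 difference -1.77 ± 0.18, adjusted p = 4.6e-08). Ahcy, which hydrolyses S-adenosylhomocysteine, fell from 1039 ± 138 FPKM on chow to 408 ± 32.5 FPKM on CDAHFD (log2 difference -1.34 ± 0.14, adjusted p = 9.69e-08), and Nnmt, which methylates nicotinamide, from 145 ± 26.7 FPKM on chow to 50 ± 12.9 FPKM on CDAHFD (log2 difference -1.54 ± 0.25, adjusted p = 1.76e-05). The genes that rose were Mat2a, the extrahepatic S-adenosylmethionine synthetase (1.15 ± 0.20), and Amd1 (1.2 ± 0.14) and Mtap (1.25 ± 0.12) of polyamine synthesis and methionine salvage. Chdh, which oxidizes choline on the way to betaine, did not fall. It was higher as deposited only (0.43 ± 0.09, -0.13 after scaling).

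Several enzymes exist as a liver form and a form used by most other tissues. Of 11 tested liver forms 7 fell and 1 rose (medians -0.33 and -0.91), and of 13 tested genes on a list of forms of other tissues 10 rose and 0 fell (medians 1.1 and 0.52). That list also holds Gapdh, Eno1, Pgk1 and Tpi1, general glycolytic enzymes that chow liver already expressed, of which Gapdh (1.1 ± 0.16) and Eno1 (0.90 ± 0.13) are among the rises. Mat1a, the liver S-adenosylmethionine synthetase, was at 2159, 2244, 2015, 1784 and 2279 FPKM on chow and 1041, 1412, 887, 1044 and 968 FPKM on CDAHFD, against 26.4, 13.2, 25.6, 21.3 and 25.9 FPKM on chow and 36.3, 65.5, 44.3, 49.9 and 57.8 FPKM on CDAHFD for Mat2a. Neither gene overlapped between the diets, and they moved in opposite directions (-0.98 ± 0.18 and 1.15 ± 0.20). Pkm, the pyruvate kinase of muscle, growing cells and leukocytes (chr9:59656368-59679375, plus strand), was at 0.936, 0.792, 1.1, 0.714 and 1.39 FPKM on chow and 14.1, 14.5, 18.7, 16.4 and 16.7 FPKM on CDAHFD, a mean 16.3-fold higher (log2 difference 3.11 ± 0.15, adjusted p = 2.22e-12). Pklr, the liver pyruvate kinase, was higher as deposited only (0.67 ± 0.20, 0.15 after scaling). Aldoa, the aldolase of muscle, rose from 16.1 ± 4.05 FPKM on chow to 62.9 ± 9.39 FPKM on CDAHFD (log2 difference 1.92 ± 0.13, adjusted p = 3.49e-10). Hk3, a hexokinase of leukocytes, rose from 0.205 ± 0.0168 FPKM on chow to 4.28 ± 0.546 FPKM on CDAHFD (log2 difference 2.13 ± 0.15, adjusted p = 4.63e-10), and the brain glycogen phosphorylase Pygb from 0.441 ± 0.109 FPKM on chow to 3.14 ± 0.766 FPKM on CDAHFD (log2 difference 1.51 ± 0.12, adjusted p = 3.34e-09). Hk1, Hk2, Arg2 and Pfkp were below the level tested, and each was higher in every CDAHFD sample than in any chow sample. Hk2, the hexokinase of muscle and fat, was at 0.122, 0.0615, 0.144, 0.142 and 0.105 FPKM on chow and 0.84, 1.51, 1.29, 0.905 and 1.48 FPKM on CDAHFD. Pkm and Hk3 are also expressed by macrophages, whose genes rose in the same samples, and in bulk liver a change in the number of cells of a type and a change in RNA per cell cannot be told apart.

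A gene of glucose release by the liver fell, to levels that varied among the CDAHFD mice. G6pc, the catalytic subunit of glucose-6-phosphatase (chr11:101367561-101377903, plus strand), was at 153, 161, 140, 123 and 218 FPKM on chow and 34.2, 5.87, 37, 46.9 and 14.8 FPKM on CDAHFD. CDAHFD samples 2 and 5 were the lowest, and no CDAHFD sample reached the chow range (log2 difference -2.75 ± 0.42, adjusted p = 1.04e-05). Feeding state at harvest, on which the gene depends, is unknown from the sources used here, and its part in the result was not tested.

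**Figure D3:**
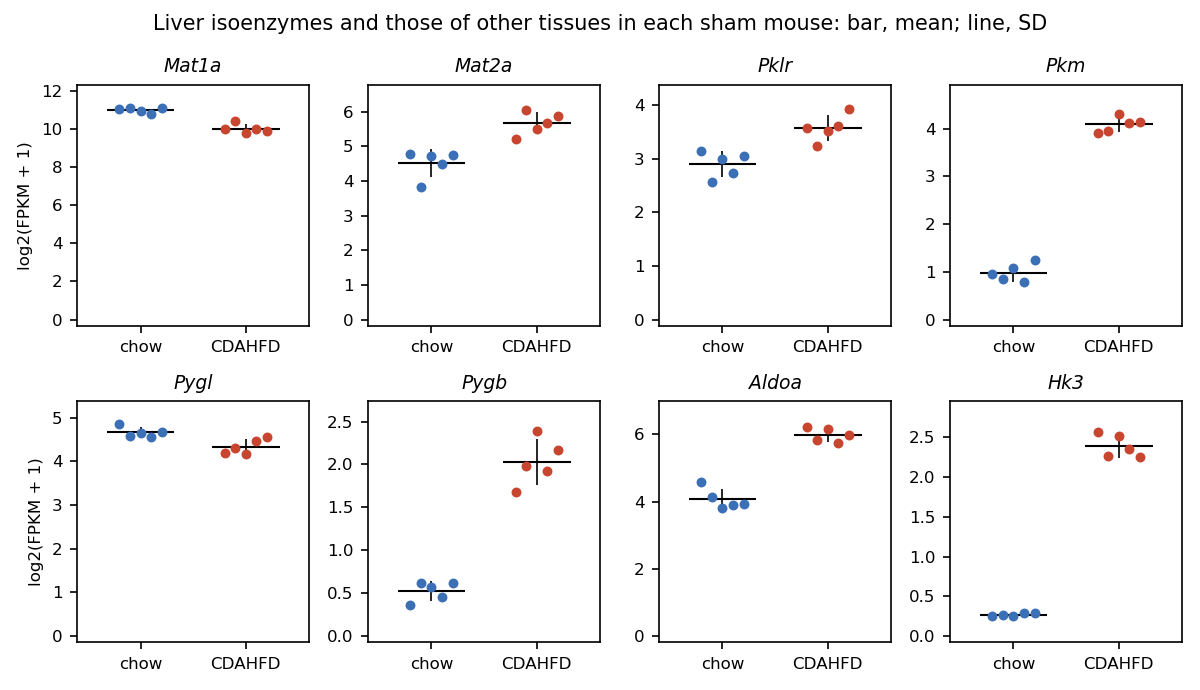
Log2(FPKM + 1) of 8 isoenzyme genes in each sham mouse (points, 5 per diet; horizontal bar, mean; vertical line, SD). Pkm, Aldoa, Pygb, Mat2a, Hk3 and Pklr are higher in every CDAHFD sample than in any chow sample, and Mat1a and Pygl lower.

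Genes of cholesterol synthesis fell and none rose. Of 24 tested genes 17 fell (median log2 difference -0.97 as deposited and -1.45 after scaling), and 14 of them did not overlap between the diets. Of all tested genes 10.3% fell, and 6.91% were lower without overlap. Idi1, isopentenyl diphosphate isomerase (chr13:8885501-8892451, plus strand), was at 17.3, 23.1, 41.8, 8.27 and 14.1 FPKM on chow and 0.379, 0.819, 0.0153, 1.3 and 1.06 FPKM on CDAHFD. CDAHFD sample 3, at 0.0153 FPKM, was the lowest, and the mean was 29.2-fold lower (log2 difference -3.55 ± 0.40, adjusted p = 2.34e-07). Msmo1, a sterol methyl oxidase, was at 13.6, 24, 44.8, 21.8 and 12.7 FPKM on chow and 1.39, 2.02, 2.14, 2.24 and 2.37 FPKM on CDAHFD, without overlap (log2 difference -2.87 ± 0.28, adjusted p = 2.58e-08). Cyp51, lanosterol demethylase, fell from 28.2 ± 8.87 FPKM on chow to 3.31 ± 0.499 FPKM on CDAHFD (log2 difference -2.72 ± 0.21, adjusted p = 1.76e-09), and Insig1, which retains the sterol sensor in the endoplasmic reticulum, also fell (-2.49 ± 0.24). Transcription of these genes is driven by the SREBP-2 factor, which binds sterol regulatory elements. The letters TCACNCCAC (N, any base; both strands) were searched in the 250 bases before the start of RefSeq promoters (GRCm38.p6, the build of the files). They were in 1 of the 16 cholesterol genes with a promoter entry (6.25%), in 1.05% of all 32851 promoters and in 1.44% of those of 7494 tested genes. The match was in Hmgcs1, HMG-CoA synthase, which fell from 33.7 ± 10.8 FPKM on chow to 13.3 ± 1.26 FPKM on CDAHFD (log2 difference -1.22 ± 0.18, adjusted p = 7.4e-06). It is shown because it is the sole match in the list. The stretch at chr13:119690174-119690262, plus strand, has the matched letters in capitals and reads 5′ to 3′:
Hmgcs1: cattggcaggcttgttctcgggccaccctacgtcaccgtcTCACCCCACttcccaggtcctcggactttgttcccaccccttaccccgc

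Fatty acid synthesis and oxidation genes split. Among 17 tested synthesis genes 7 fell and 2 rose (medians 0.18 and -0.32), and among 30 oxidation genes 5 fell, 2 rose and 23 did neither (medians 0.08 and -0.50). Of all tested genes 10.3% fell and 30.5% rose. Thrsp, a lipogenic regulator (-2.28 ± 0.53), and Acacb, the carboxylase whose product restrains fat oxidation (-1.23 ± 0.11), fell the most of the synthesis genes, while Fasn, fatty acid synthase, fell by less (-0.45 ± 0.16) and Srebf1, its regulator, rose (0.83 ± 0.17). Cyp4a10, a target of Ppara, fell (-1.8 ± 0.29), whereas Cpt1a, the gate of mitochondrial oxidation, was higher as deposited only (0.30 ± 0.10, -0.28 after scaling).

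Genes of fat uptake and storage moved in both directions. Of 25 tested, 10 rose and 5 fell (median log2 difference 0.69 as deposited and 0.11 after scaling), beside 30.5% and 10.3% of all tested genes. Lpl, lipoprotein lipase (chr8:68880491-68907448, plus strand), which adult hepatocytes express little, was at 1.17, 0.774, 1.43, 1.03 and 1.08 FPKM on chow and 73.4, 52.9, 71.8, 62.5 and 56 FPKM on CDAHFD. The mean was 57.7-fold higher with no overlap (log2 difference 4.93 ± 0.14, adjusted p = 8.16e-16). Cd36, a fatty acid translocase of hepatocytes and macrophages, was at 11.7, 16.6, 7.64, 15.8 and 18 FPKM on chow and 103, 151, 88.2, 72.6 and 108 FPKM on CDAHFD, without overlap (log2 difference 2.83 ± 0.23, adjusted p = 3.28e-09). The fatty acid-binding proteins Fabp4 (2.81 ± 0.27) and Fabp5 (2.77 ± 0.28) and the droplet protein Cidec (1.94 ± 0.34) rose. The most abundant hepatocyte form, Fabp1, was not called (-0.05 ± 0.18), and Plin2, the general coat protein of lipid droplets, was higher as deposited only (0.68 ± 0.25, 0.10 after scaling), and was not called without chow sample 3 (0.54), chow sample 4 (0.58) or CDAHFD sample 2 (0.59). G0s2, an inhibitor of triglyceride lipase (-1.17 ± 0.29), and the fatty acid transporters Slc27a5 (-1.47 ± 0.12) and Slc27a2 (-0.73 ± 0.10) fell.

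For export of fat in lipoproteins, Apob, the structural protein of VLDL (-0.71 ± 0.22), and Mttp, which loads it with lipid (-0.33 ± 0.11), fell by less than a halving on the log2(FPKM + 1) scale. Apoa4 was the apolipoprotein that rose most, at 548, 504, 153, 175 and 409 FPKM on chow and 2982, 5113, 3693, 2502 and 2696 FPKM on CDAHFD, without overlap (log2 difference 3.38 ± 0.41, adjusted p = 6.03e-07). Apoe, made by hepatocytes and macrophages, rose from 1431 ± 342 FPKM on chow to 3282 ± 532 FPKM on CDAHFD (log2 difference 1.21 ± 0.18, adjusted p = 8.16e-06), and the phospholipid transfer protein Pltp also rose (2.53 ± 0.20). Of 22 tested genes 3 rose and 7 fell (median log2 difference 0.10 as deposited and -0.48 after scaling), beside 30.5% and 10.3% of all tested genes.

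In bile acid metabolism 13 of 26 tested genes fell and 2 rose (median log2 difference -0.41 as deposited and -0.98 after scaling). Cyp7a1, the rate-limiting enzyme of bile acid synthesis, was at 34.7, 24.4, 48.2, 43.6 and 14.2 FPKM on chow and 39.6, 78, 32.9, 19.1 and 37.6 FPKM on CDAHFD; the ranges overlapped and it was not called (log2 difference 0.30 ± 0.34, adjusted p = 0.434). Cyp8b1, which directs synthesis toward cholic acid, was at 144, 181, 139, 96.3 and 120 FPKM on chow and 36.8, 37, 18.3, 9.52 and 26.3 FPKM on CDAHFD, without overlap (log2 difference -2.48 ± 0.40, adjusted p = 1.75e-05). Slc10a1, the uptake transporter, also fell (-1.24 ± 0.14). The members that rose were Slc51b, a subunit of the basolateral bile acid exporter, at 0.285, 0, 0.399, 0.842 and 0 FPKM on chow and 10.1, 8.55, 8.72, 10.2 and 5.39 FPKM on CDAHFD (log2 difference 2.89 ± 0.20, adjusted p = 2.25e-10), and the exporter Abcc4 (1.69 ± 0.12). The canalicular bile salt pump Abcb11 was not called (-0.43 ± 0.22).

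Amino acid catabolism and urea synthesis fell as a group, 20 of 28 tested genes against 0 that rose (median log2 difference -0.54 as deposited and -1.11 after scaling). Tdo2, tryptophan dioxygenase, the first step of the kynurenine pathway (chr3:81957090-81976202, minus strand), was at 888, 960, 1059, 1333 and 927 FPKM on chow and 195, 422, 208, 268 and 313 FPKM on CDAHFD. The diets did not overlap (log2 difference -1.92 ± 0.21, adjusted p = 1.47e-07). The later enzymes of that pathway Kmo (-1.17 ± 0.09), Kynu (-1.3 ± 0.12) and Haao (-1.15 ± 0.14) also fell, as did Aass of lysine breakdown (-1.44 ± 0.19) and Hpd of tyrosine breakdown (-1.25 ± 0.11). In the urea cycle, Asl (-1.11 ± 0.19), Otc (-1.03 ± 0.11) and Cps1 (-0.65 ± 0.17) fell and Ass1 was not called (-0.07 ± 0.15).

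Within the list of coagulation and complement genes, those of the membrane attack complex fell the most. Of 33 coagulation and complement genes 19 fell and 0 rose (median log2 difference -0.55 as deposited and -1.12 after scaling). C8b (chr4:104766317-104804548, plus strand) was at 143, 120, 111, 114 and 146 FPKM on chow and 25.4, 25.2, 18.7, 25.4 and 26.2 FPKM on CDAHFD, without overlap (log2 difference -2.35 ± 0.20, adjusted p = 6.27e-09). C8a (-2.23 ± 0.28), C6 (-2.09 ± 0.27) and C9 (-1.86 ± 0.24) fell with it. F2, prothrombin (-0.02 ± 0.09), F10 (-0.02 ± 0.12) and Serpinc1, antithrombin (-0.03 ± 0.08), were not called. Acute phase proteins, the plasma proteins of inflammation, mostly rose, 12 of 23 against 3 that fell (medians 1.09 and 0.51). Lcn2, lipocalin 2, which binds bacterial siderophores (chr2:32384633-32388252, minus strand), was at 1.55, 0.781, 1.21, 1.03 and 0.885 FPKM on chow and 191, 122, 157, 211 and 110 FPKM on CDAHFD, a mean 145-fold higher (log2 difference 6.22 ± 0.24, adjusted p = 1.23e-13). Orm2, an orosomucoid, rose from 11 ± 2.25 FPKM on chow to 234 ± 40.7 FPKM on CDAHFD (log2 difference 4.29 ± 0.22, adjusted p = 4.7e-12), Saa1, serum amyloid A1, from 16.2 ± 10.3 FPKM on chow to 48.1 ± 14 FPKM on CDAHFD (log2 difference 1.65 ± 0.31, adjusted p = 0.000105), and Hpx, hemopexin, from 2629 ± 309 FPKM on chow to 5642 ± 831 FPKM on CDAHFD (log2 difference 1.1 ± 0.11, adjusted p = 4.35e-08). In the opposite direction, Serpina3k, a protease inhibitor with close paralogs, went from 9329 ± 1158 FPKM on chow to 879 ± 172 FPKM on CDAHFD (log2 difference -3.42 ± 0.15, adjusted p = 5.7e-13), the third largest loss of mean FPKM after Alb and Mup3. Hamp, hepcidin, the hormone that limits iron export, was at 654, 816, 1107, 786 and 1000.3 FPKM on chow and 1732, 2648, 2366, 1586 and 2899.7 FPKM on CDAHFD, without overlap (log2 difference 1.35 ± 0.24, adjusted p = 6.28e-05).

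**Figure D4:**
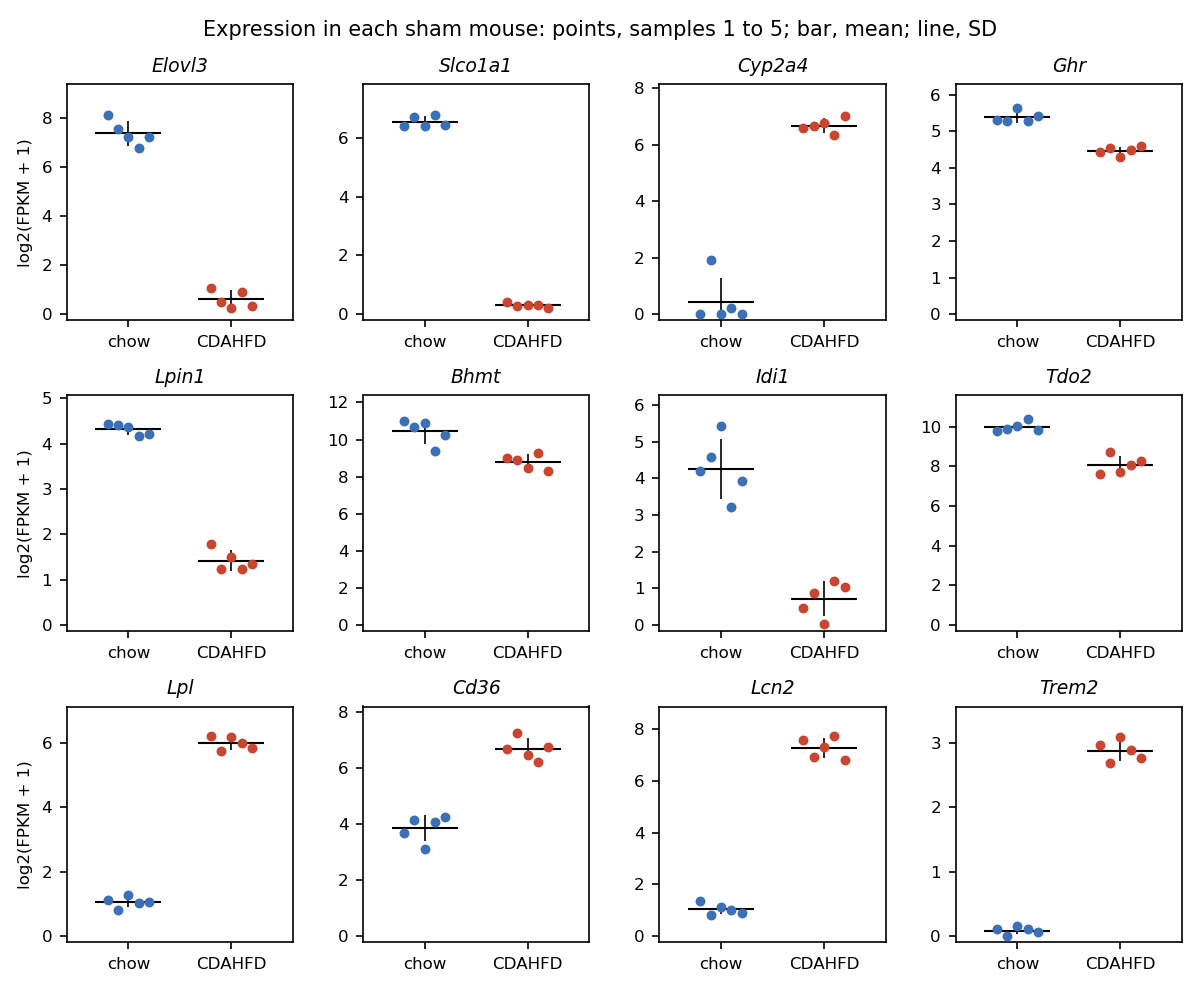
Log2(FPKM + 1) of 12 genes in each sham mouse (points, samples 1 to 5 of each diet from left to right; horizontal bar, mean; vertical line, SD). The diets overlap for none of the 12; Elovl3, Slco1a1, Ghr, Lpin1, Bhmt, Idi1 and Tdo2 are lower on CDAHFD, and Cyp2a4, Lpl, Cd36, Lcn2 and Trem2 higher.

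Clock genes differed between the diets, and the hour of harvest is unknown from the sources used here, so diet and sampling time cannot be told apart for them. Dbp was at 0.734, 0.684, 1.11, 3.61 and 0.946 FPKM on chow and 28.9, 15.1, 18.6, 13.2 and 15.8 FPKM on CDAHFD, without overlap (log2 difference 3.06 ± 0.29, adjusted p = 2.37e-08). Per2, a repressor of the clock (1.74 ± 0.15), and Per3 (1.24 ± 0.13) rose, and Nfil3, a repressor of the genes that Dbp activates (-1.39 ± 0.24), Rora (-1.12 ± 0.12) and Clock (-0.64 ± 0.11) fell. Arntl, the partner of Clock, was below the level tested, at 2.54, 2.32, 2.01, 0.619 and 1.73 FPKM on chow and 0.28, 0.377, 0.278, 0.272 and 0.251 FPKM on CDAHFD. It was lower in every CDAHFD sample. Of 17 tested clock genes 5 rose and 4 fell (median log2 difference 0.31 as deposited and -0.21 after scaling), beside 30.5% and 10.3% of all tested genes.

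Macrophage genes rose together. Of 16 tested genes common to macrophages 15 rose (median log2 difference 2.74 as deposited and 2.24 after scaling), among them Cd68 (4.03 ± 0.20), Lyz2 (3.91 ± 0.20) and C1qb (3.15 ± 0.17). A list of lipid-associated macrophage genes had the highest median of all lists, 3.35 as deposited, and 2.89 after scaling, with 15 of 17 that rose. Trem2, a lipid receptor of macrophages (chr17:48346401-48354147, plus strand), was at 0.0791, 0, 0.111, 0.0838 and 0.0411 FPKM on chow and 6.81, 5.46, 7.47, 6.4 and 5.77 FPKM on CDAHFD. Every CDAHFD sample was above 5 FPKM and every chow sample below 0.2 FPKM (log2 difference 2.79 ± 0.14, adjusted p = 5.69e-12). Gpnmb, a glycoprotein of lipid-loaded macrophages, was at 0, 0, 0.0089, 0 and 0 FPKM on chow and 52.3, 33.7, 48.3, 36.6 and 42.3 FPKM on CDAHFD, and was listed at 0 in 4 of 5 chow samples (log2 difference 5.43 ± 0.18, adjusted p = 1.07e-14). Lgals3, galectin 3, was 94.1-fold higher (log2 difference 5.7 ± 0.17, adjusted p = 1.66e-15) and Mmp12, a macrophage elastase, also rose (4.89 ± 0.17). Of 14 Kupffer cell markers, which label resident liver macrophages, 9 rose and 2 fell (median log2 difference 1.41 as deposited and 1.03 after scaling). Timd4, a marker of long-resident Kupffer cells, was at 1.09, 1.53, 1.05, 1.96 and 1.23 FPKM on chow and 0.711, 1.31, 1.42, 1.08 and 1.75 FPKM on CDAHFD, with overlapping ranges, and was not called (log2 difference -0.08 ± 0.13, adjusted p = 0.607). Clec4f, the defining Kupffer lectin, was higher as deposited only (0.70 ± 0.16, 0.13 after scaling), and Marco, a scavenger receptor, rose from 2.04 ± 0.788 FPKM on chow to 26.6 ± 15.8 FPKM on CDAHFD (log2 difference 3.06 ± 0.30, adjusted p = 3.34e-08). C6, which fell, stands on this list and is also a hepatocyte gene.

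Other leukocyte genes were low but higher on CDAHFD. Of 14 monocyte genes 7 passed the filter and rose, 6 of the 7 being below 1 FPKM on chow, led by S100a4 (3.22 ± 0.31) and including Ccr2, the receptor that brings monocytes to tissue (2.0 ± 0.12). Of 22 T and NK cell markers only 5 passed the filter on low values and all of these rose, among them Trbc2, a T cell receptor chain (1.5 ± 0.21). The antigen-presentation genes H2-Aa (3.27 ± 0.17) and Cd74 (3.28 ± 0.24), carried by dendritic cells, B cells and macrophages, rose. A gene that passed the filter only through the CDAHFD samples had to be higher there, so counts over this and other lists with members below 1 FPKM on chow describe the members that passed and add nothing to the values.

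Sinusoidal endothelial markers had a smaller median than the macrophage lists, a difference that was not tested. Of 17 tested 9 rose and 0 fell (median log2 difference 0.85 as deposited and 0.40 after scaling), beside 30.5% and 10.3% of all tested genes. As mean log2(FPKM + 1) of the list minus its mean over all 19 samples, chow sample 5 was at 0.18 and CDAHFD sample 1 at 0.24. Chow samples 1 to 4 were at -0.47, -0.35, -0.43 and -0.51. Stab2, a scavenger receptor of sinusoidal endothelial cells, went from 1.27 ± 0.308 FPKM on chow to 2.86 ± 0.251 FPKM on CDAHFD (log2 difference 0.77 ± 0.13, adjusted p = 3.51e-05). Among general endothelial genes the leukocyte adhesion molecules Icam1 (2.55 ± 0.09) and Vcam1 (2.11 ± 0.19) rose the most. Of 39 listed genes of activated stellate cells and matrix 30 passed the filter, 18 of them below 1 FPKM on chow; 28 rose and 0 fell. Col1a1, a chain of type I collagen (chr11:94936224-94953042, plus strand), was at 0.0302, 0.0646, 0.0927, 0.0457 and 0.158 FPKM on chow and 8.68, 3.47, 15.7, 10.4 and 5.16 FPKM on CDAHFD, without overlap (log2 difference 3.02 ± 0.31, adjusted p = 7.06e-08). The CDAHFD samples varied widely, with samples 3 and 4 the highest. Col3a1, type III collagen, was at 0.61, 0.497, 0.652, 0.466 and 0.891 FPKM on chow and 26, 17.9, 59.4, 46.1 and 25.2 FPKM on CDAHFD (log2 difference 4.34 ± 0.29, adjusted p = 1.69e-10), and Acta2, smooth muscle actin, a mark of activated stellate cells, at 0.0909, 0.392, 0, 0.115 and 0.475 FPKM on chow and 6.78, 4.17, 14.8, 6.65 and 9.76 FPKM on CDAHFD (log2 difference 2.87 ± 0.22, adjusted p = 1.23e-09). Timp1, an inhibitor of matrix breakdown, also rose (3.03 ± 0.23). Of 16 tested markers of quiescent stellate cells 10 rose and 0 fell (medians 1.03 and 0.65); those that rose included Lrat, which stores vitamin A (1.15 ± 0.17). Of 19 listed markers of bile duct cells 8 passed the filter, 6 of them below 1 FPKM on chow. Epcam, a surface protein of duct and progenitor cells, was at 0.407, 0.227, 0.869, 0.656 and 0.843 FPKM on chow and 4.88, 4.71, 15.7, 9.63 and 7.49 FPKM on CDAHFD (log2 difference 2.46 ± 0.30, adjusted p = 6.35e-07). Spp1, osteopontin, made by duct cells and lipid-associated macrophages, was at 17.9, 14.9, 32.7, 18.8 and 25.1 FPKM on chow and 177, 135, 455, 340 and 230 FPKM on CDAHFD (log2 difference 3.47 ± 0.33, adjusted p = 2.59e-08). Sample 3 was the highest CDAHFD sample for Col1a1, Col3a1, Acta2, Epcam and Spp1.

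All 32 tested cytoskeleton genes rose with no overlap (median log2 difference 2.34 as deposited and 1.87 after scaling), led by Tubb2b, a beta tubulin (4.45 ± 0.31), Tmsb10, an actin-binding thymosin (3.86 ± 0.22), and the actin Actg1 (3.71 ± 0.13). The calcium-binding annexins and S100 proteins rose for 15 of 19 (medians 2.36 and 1.95), with S100a11 from 3.1 ± 1.65 FPKM on chow to 164 ± 38.4 FPKM on CDAHFD (log2 difference 5.4 ± 0.22, adjusted p = 2.77e-13) and Anxa2 from 1.32 ± 0.438 FPKM on chow to 54.6 ± 7.76 FPKM on CDAHFD (log2 difference 4.59 ± 0.14, adjusted p = 2.82e-15). Lysosomal genes rose for 25 of 32 (median log2 difference 1.41 as deposited and 0.94 after scaling), among them Cd63 (5.09 ± 0.14) and the protease Ctss (4.29 ± 0.20), and Lamp2, a lysosomal membrane protein, fell (-0.73 ± 0.09). All 86 tested ribosomal protein genes were higher as deposited, but only 37 of them rose under both scalings (median log2 difference 0.83 as deposited and 0.24 after scaling).

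Of 32 listed genes of DNA replication and mitosis 17 passed the filter, 11 of them below 1 FPKM on chow, so that their values rather than a count are given. Ccnd1, cyclin D1, which takes cells into the cycle (chr7:144929931-144939925, minus strand), was at 1.04, 1.12, 1.1, 1.3 and 1.35 FPKM on chow and 37.8, 68.7, 62.6, 51.2 and 71 FPKM on CDAHFD, a mean 49.3-fold higher (log2 difference 4.73 ± 0.20, adjusted p = 3.91e-13). Mki67, a marker of cycling cells, was at 0.049, 0.0995, 0.121, 0.0857 and 0.133 FPKM on chow and 4.39, 7.25, 4.61, 2.9 and 5.5 FPKM on CDAHFD (log2 difference 2.39 ± 0.13, adjusted p = 1.01e-11). Of 18 p53 target genes 11 rose and 1 fell (medians 1.0 and 0.57), with Phlda3 (2.34 ± 0.15) and Bax, a cell death gene (1.79 ± 0.18), among the rises. Cdkn1a, the cell cycle inhibitor p21, was at 11.6, 17.7, 17, 3.58 and 12.8 FPKM on chow and 9.25, 9.18, 10.9, 9.68 and 8.97 FPKM on CDAHFD and was not called (log2 difference -0.20 ± 0.34, adjusted p = 0.598). The fetal transcript H19, a long noncoding RNA, was listed at 0 in all 5 chow samples and was at 1.47, 1.5, 5.14, 5.85 and 2.77 FPKM on CDAHFD (log2 difference 1.99 ± 0.24, adjusted p = 5.61e-07).

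Stress genes rose in part. NRF2 targets, which defend against oxidants, rose for 17 of 26 and fell for 3 (median log2 difference 1.43 as deposited and 0.88 after scaling). Gsta1, a glutathione transferase with close paralogs, rose from 1.2 ± 0.417 FPKM on chow to 93.4 ± 28 FPKM on CDAHFD (log2 difference 5.39 ± 0.21, adjusted p = 8.18e-14), and Hmox1, heme oxygenase, from 5.29 ± 1.27 FPKM on chow to 75.4 ± 11.8 FPKM on CDAHFD (log2 difference 3.62 ± 0.20, adjusted p = 1.05e-11); Gclm, a subunit of the rate-limiting enzyme of glutathione synthesis, was not called (0.50 ± 0.28). Of 16 tested genes of the integrated stress response 6 rose and 0 fell, beside 30.5% and 10.3% of all tested genes. The list median was 0.44 as deposited and -0.01 after scaling, close to the 0.45 and 0.00 of all tested genes. Atf3 (4.25 ± 0.15) and Ddit3 (1.5 ± 0.13) were among the rises, while Atf5 was not called (0.09 ± 0.20). Of 39 conjugating enzymes and carboxylesterases of drug metabolism 20 fell and 7 rose (medians -0.37 and -0.95). The rises were all of glutathione transferases, among them Gsta1 and Gstm3 (3.83 ± 0.31), and among the falls Ces3b, a carboxylesterase (-4.01 ± 0.27), and Sult2a8, a bile acid sulfotransferase (-3.57 ± 0.15), were the largest.

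Interferon-stimulated genes, which cells switch on in answer to antiviral signals, rose for 23 of 27 tested and fell for 1 (median log2 difference 1.23 as deposited and 0.83 after scaling). Isg15, a ubiquitin-like protein (chr4:156199424-156200818, minus strand), was at 2.94, 2.45, 2.36, 2.56 and 2.46 FPKM on chow and 16.4, 13.7, 25.6, 17.8 and 15.1 FPKM on CDAHFD, without overlap (log2 difference 2.37 ± 0.18, adjusted p = 1.24e-09). Ifit3 (chr19:34583531-34588731, plus strand) was at 3.11, 3.34, 3.22, 2.3 and 3.54 FPKM on chow and 10.1, 9.91, 17.2, 13.4 and 11.4 FPKM on CDAHFD, without overlap (log2 difference 1.69 ± 0.19, adjusted p = 2.41e-07). CDAHFD sample 3 was the highest for both. Iigp1, an interferon-induced GTPase, fell (-0.47 ± 0.18), but was not called without chow sample 4 (-0.42, adjusted p = 0.0548) or CDAHFD sample 1 (-0.32, adjusted p = 0.0753). The letters GAAANNGAA, a core of the interferon-stimulated response element, were in the 250 bases before the start of 13 of the 19 listed genes with a promoter entry (68.4%), against 7.13% of all promoters and 7.35% of those of tested genes, on either strand. The sequences below show them for a pair of the genes whose values are given. Capitals mark the letters or their reverse complement, and both are printed 5′ to 3′ on the strand of the gene. Isg15 is at chr4:156200836-156200924, minus strand, and holds 2 further matches, 1 of which overlaps the marked one. Ifit3 is at chr19:34583334-34583422, plus strand, and the promoter holds 2 further matches.
Isg15: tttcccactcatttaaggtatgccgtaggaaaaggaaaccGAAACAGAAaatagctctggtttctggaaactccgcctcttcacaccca
Ifit3: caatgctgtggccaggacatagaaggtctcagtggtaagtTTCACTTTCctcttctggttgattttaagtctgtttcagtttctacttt

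Chemokines and cytokines, the signals that recruit and feed leukocytes, passed the filter for 19 of 30 listed, 13 of them below 1 FPKM on chow; 16 rose and 1 fell. Ccl2, which attracts monocytes through Ccr2, was at 0, 0.0404, 0.0961, 0 and 0.104 FPKM on chow and 11.8, 10.9, 13.7, 13.9 and 9.64 FPKM on CDAHFD (log2 difference 3.62 ± 0.12, adjusted p = 1.71e-14). Cxcl1, a neutrophil attractant (chr5:90891241-90893115, plus strand), was at 0.646, 0.31, 1.06, 1.35 and 0.407 FPKM on chow and 13.6, 13.9, 17.7, 14.5 and 10.6 FPKM on CDAHFD (log2 difference 3.12 ± 0.19, adjusted p = 3.73e-11). Cxcl10, an interferon-induced attractant of T cells (chr5:92346638-92348889, minus strand), was at 0.252, 0.215, 0.365, 0.249 and 0.33 FPKM on chow and 8.07, 6.77, 9.82, 7.54 and 8.46 FPKM on CDAHFD (log2 difference 2.82 ± 0.15, adjusted p = 1.07e-11), and Csf1, the macrophage growth factor (chr3:107741048-107760469, minus strand), at 0.319, 0.197, 0.258, 0.236 and 0.494 FPKM on chow and 4.62, 3.31, 5.04, 4.11 and 3.02 FPKM on CDAHFD (log2 difference 1.94 ± 0.12, adjusted p = 7.17e-11). None of the 4 overlapped between the diets. Cxcl13, which attracts B cells, fell (-1.25 ± 0.20). The letters GGANNTTCC, a core of an NF-kB site, were on either strand before the start of 3 of 14 listed genes with a promoter entry (21.4%), against 3.59% of all promoters and 4.54% of those of tested genes. The 3 genes are Cxcl1 (chr5:90891135-90891223, plus strand), Cxcl10 (chr5:92348999-92349087, minus strand) and Csf1 (chr3:107760575-107760663, minus strand), shown on the strand of the gene with the letters or their reverse complement in capitals:
Cxcl1: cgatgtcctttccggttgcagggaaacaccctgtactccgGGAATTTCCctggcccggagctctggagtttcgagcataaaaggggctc
Cxcl10: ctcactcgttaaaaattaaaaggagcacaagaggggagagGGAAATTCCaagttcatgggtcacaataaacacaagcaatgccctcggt
Csf1: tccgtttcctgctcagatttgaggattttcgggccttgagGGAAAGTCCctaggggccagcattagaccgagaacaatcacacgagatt

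Early response genes rose for 14 of 18 tested (medians 1.49 and 1.08), among them Jun (3.06 ± 0.25) and Fos (2.05 ± 0.23), and targets of YAP, a growth regulator that responds to stiffness, for 11 of 15 (medians 1.3 and 0.78), among them Ctgf, connective tissue growth factor (2.57 ± 0.31). Of 23 genes of iron and metal handling 14 rose, including Fth1, the ferritin heavy chain (1.47 ± 0.12), and 2 fell, including Slc30a10, a manganese exporter (-1.76 ± 0.20).

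The 13 listed mitochondrially encoded transcripts held 20.6 to 23.0% of all FPKM on chow and 20.3 to 23.4% on CDAHFD. Of these 6 fell and 1 rose (medians -0.18 and -0.77). The one that rose, mt-Atp6, a subunit of ATP synthase (chrM:7927-8607, plus strand), was at 1976, 1976, 2285, 2203 and 2012 FPKM on chow and 13573, 9680.5, 12789, 13309.5 and 10878 FPKM on CDAHFD (log2 difference 2.52 ± 0.09, adjusted p = 4.6e-14). mt-Atp8, its neighbour in the same transcript, was not called (-0.05 ± 0.09). The nuclear pseudogene Gm10925 (chr1:24613974-24614651, minus strand) was at 10988, 10854, 12557, 12389 and 11135 FPKM on chow and 14323, 10296, 13545, 14068 and 11539.8 FPKM on CDAHFD and was not called (log2 difference 0.13 ± 0.09, adjusted p = 0.209; 0.20, adjusted p = 0.0357, without CDAHFD sample 2). Near-identical copies share reads, so the value of mt-Atp6 depends on how the counting divided them and is uncertain. On average mt-Atp6 held 0.426% of all FPKM on chow and 2.55% on CDAHFD, so the summed share of the 13 transcripts carries the same uncertainty.

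The spread between samples was slightly larger on CDAHFD, without a test. Over 2964 genes at 10 FPKM or more, the median SD of log2(FPKM + 1) was 0.149 on chow and 0.179 on CDAHFD, and 59.2% of these genes had the larger SD on CDAHFD. Mgll, which splits monoglycerides, was at 33.2, 40.3, 28.3, 33.3 and 38.5 FPKM on chow and 42, 51.9, 8.85, 3.56 and 43.5 FPKM on CDAHFD. CDAHFD samples 3 and 4 were far below the chow range and samples 1, 2 and 5 above it (log2 difference -0.72 ± 0.48, adjusted p = 0.182; -1.51, adjusted p = 0.00662, without CDAHFD samples 2 and 5). Cldn2, a tight junction protein, was at 8.83, 12, 5.63, 8.85 and 0.00331 FPKM on chow and 19.8, 0.0308, 23.2, 26.1 and 31.2 FPKM on CDAHFD; CDAHFD sample 2 and chow sample 5 were near 0. It was not called (log2 difference 1.15 ± 0.82, adjusted p = 0.211), but was without CDAHFD sample 2 (2.08, adjusted p = 0.0048).

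The diet comparisons in sham and conditioned mice come from the same fit, with a shared filter and a shared estimate of the spread, so their calls are not independent. The same diet comparison in the conditioned mice shares no sample with the sham comparison. Of the 3227 genes that rose in sham mice 3118 (96.6%) were also called higher there as deposited, beside 63.6% of all tested genes, and of the 1090 that fell 534 (49.0%) were also called lower, beside 6.68% of all; 75 genes called in sham mice were called in the opposite direction. The difference between the diet effects of conditioned and sham mice was called for 711 genes (6.72% of those tested), 380 with a positive and 331 with a negative sign. Ppm1k, a phosphatase that activates the breakdown of branched-chain amino acids (chr6:57506502-57535468, minus strand), was at 14.2, 19.7, 18.8, 18.5 and 20.5 FPKM on chow and 6.33, 6.09, 6.45, 8.37 and 5.05 FPKM on CDAHFD in sham mice, and its mean was 17.4 ± 1.68 FPKM in conditioned chow mice (n = 5) and 19.9 ± 3.21 FPKM in conditioned CDAHFD mice (n = 4). The log2 difference was -1.38 in sham and 0.18 in conditioned mice, and these differed by 1.56 (adjusted p = 0.000254). Acacb had -1.23 in sham and 0.16 in conditioned mice (difference 1.38, adjusted p = 0.000254), and Mgst3, a microsomal glutathione transferase, 3.13 and 2.06 (difference -1.08, adjusted p = 0.00039). G6pc had -2.75 and -0.53 (difference 2.22, adjusted p = 0.0373). Hamp had 1.35 and -0.66 (difference -2.01, adjusted p = 0.00295), and Ppara -1.14 and 0.29 (difference 1.42, adjusted p = 0.00779). Mat1a had -0.98 and 0.10 (difference 1.08, adjusted p = 0.0191). The number of such genes rested on single samples: it was 440 without chow sham sample 2 and 464 without CDAHFD sham sample 3, and 1258 without CDAHFD sham samples 2 and 5.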

How the data were processed

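Per the labels' protocols, liver RNA was isolated by the Trizol method and made into Illumina libraries with a VAHTS Universal kit; strand and read length are unknown from the sources used here. The authors deposited FPKM for 55335 entries in 19 samples. The submitters' processing notes name FastQC 0.11.9, Trimmomatic 0.38, HISAT2 2.2.1, HTSeq 0.13.5, R 3.4.1, DESeq2 1.18.1 and the mm10 genome, without their order; which program made the FPKM is not stated. FPKM is relative to each sample's total, so a fall of a few very abundant transcripts raises all others.

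Here, the 3225 entries with no gene name (0.147 to 0.204% of FPKM in the sham samples) were left out, and genes whose mean reached 1 FPKM were tested on log2(FPKM + 1) with limma 3.58.1 (R 4.3.3; empirical Bayes with a trend), with a mean for each of the 4 groups and 15 residual degrees of freedom. A pseudocount of 1 understates changes of low genes. Median-ratio scaling divided each sample by the median of its ratios to the geometric mean over samples, across genes above 0 in every sample. Positions are from GENCODE M21 on the same build (91.5% of named entries placed), and promoters from RefSeq (GRCm38.p6). The limma script was tested on simulated data. The 55 gene lists were written from textbook knowledge, and the lists, the naming rule and the comparison were chosen with earlier results of these data known. Genes named were the largest rises and falls of each list with members not called, the largest changes of level, spread and interaction, and a set of liver and cell type genes; some genes are not reported here. Alternatives were the pseudocount, the filter, 3 scalings, sham samples only, array weights, a replicate block and leaving out samples.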

Additional observations from a re-analysis of the deposited data

Results flagged for a closer look

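Among 380 sets of 5 values, 1 per named gene and diet, 25 had a highest or lowest sample that stood far from the other 4; chance alone gives about 1 in 20 of such sets. Chow sample 1 stood apart with Apoe at 2033 FPKM and Ppm1k at 14.2 FPKM. Chow sample 2 stood apart with Cyp2a4 at 2.79 FPKM, Cyp2b9 at 0.0779 FPKM, Fth1 at 148 FPKM and Gsta1 at 0.481 FPKM. Chow sample 3 stood apart with Gpnmb at 0.0089 FPKM, Tubb2b at 2 FPKM and Ubd at 2.25 FPKM. Chow sample 4 stood apart with Aass at 145 FPKM, Cdkn1a at 3.58 FPKM, Dbp at 3.61 FPKM and Igf1 at 72.7 FPKM. Chow sample 5 stood apart with Cldn2 at 0.00331 FPKM, Fabp4 at 1.92 FPKM, Fabp5 at 2.65 FPKM and Gclm at 8.42 FPKM. CDAHFD sample 2 stood apart with Arntl at 0.377 FPKM and Cldn2 at 0.0308 FPKM. CDAHFD sample 3 stood apart with C1qb at 140 FPKM, C8b at 18.7 FPKM, C9 at 62.5 FPKM and Serpina3k at 580 FPKM. CDAHFD sample 5 stood apart with Cpt1a at 65 FPKM and Slc51b at 5.39 FPKM.

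For 33 of the 188 named genes that were tested, the log2 difference between the diets was not the same in conditioned and sham mice by limma's interaction term at an adjusted p under 0.05. The difference in conditioned mice minus that in sham mice was 1.25 for Aass, 1.38 for Acacb, 1.02 for Cps1, 0.95 for Cpt1a, 2.39 for Cyp17a1, 1.88 for G0s2, 2.22 for G6pc, 0.52 for Kmo and 0.58 for Kynu. It was 1.08 for Mat1a, 1.42 for Ppara, 1.56 for Ppm1k, 1.01 for Rdh16, 0.93 for Rora, 0.55 for Slc27a2, 0.90 for Slco1a1 and 0.65 for Timd4. It was negative, at -1.75 for Acta2, -0.83 for Actg1, -0.86 for Amd1, -1.27 for Atf3, -0.72 for Ccl2, -0.71 for Csf1, -1.18 for Cxcl10, -0.72 for Ddit3 and -2.08 for Gsta1. The remaining values were -2.01 for Hamp, -0.71 for Icam1, -1.22 for Isg15, -1.48 for Jun, -1.08 for Mgst3, -0.84 for Mki67 and -0.97 for Per2. These genes are a part of the 711 called among all 10577 genes tested, or 6.72%. Some of the named genes were chosen for a small p of this same interaction term, and others for large diet differences. The count of 33 therefore describes the named genes only and is not comparable with that share.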

How the results depend on the processing

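The counts rested most on scaling. As deposited 6762 genes were higher and 1090 lower; after median-ratio scaling 3227 and 3222, after quantile normalization 3116 and 3428, and after rescaling to a common sum higher genes made up 88.2% of calls. Doublings and halvings went from 1809 and 323 to 903 and 713 after median-ratio scaling and 818 and 637 after quantile normalization. With quantile normalization in place of the deposited values, 2811 genes fell under both scalings. With no filter on low values 11037 genes were higher and 5591 rose under both scalings, and with a minimum mean of 5 FPKM 2826 and 1590; doublings were 761 at that minimum and 2731 with a pseudocount of 0.1, and interactions 386 at that minimum, where fewer genes were tested. Leaving out 1 sham sample gave 6462 to 6740 genes higher, 1009 to 1136 lower, 1688 to 1886 doublings and 313 to 337 halvings, and 2950 to 3211 that rose under both scalings. The interaction count of 711 ranged from 440 (without chow sample 2) and 464 (without CDAHFD sample 3) to 1029, and was 1258 without CDAHFD samples 2 and 5; the cause was not tested. As a replicate block, the sample number gave 6829 genes higher and 1069 lower in the sham samples, and 600 interactions over the 4 groups. Deviations of same-numbered chow and CDAHFD samples correlated at -0.0742 to 0.136, and 2 of the 5 chow samples correlated best with their own number. What the number stands for is unknown from the sources used here, and a batch shared by same-numbered samples was not tested. Among named genes called as deposited or under the alternative, the log2 difference turned after median-ratio scaling to -0.49 for Atf5, -0.13 for Chdh, -0.39 for Chka, -0.28 for Cpt1a, -0.46 for Gm10925 and -0.15 for Stat5b, and after quantile normalization to -0.50 for Chka, -0.37 for Cyp3a44 and -0.18 for Stat5b. The value of Chdh after quantile normalization is not given here. Without a call in either, it also changed sign after median-ratio scaling for Glul (-0.32), Cyp7a1 (-0.27), Cyp3a44 (-0.14) and Gclm (-0.06), and after quantile normalization for Ass1 (0.30), Atf5 (-0.08), Cyp7a1 (-0.02) and Fabp1 (0.14). Without Mup and mitochondrially encoded transcripts in the total, the ratio of the shares of FPKM on CDAHFD and chow moved by more than the spread between samples for hepatocyte transcription factors (0.945), phosphatidylcholine genes (0.974), vitamin A genes (0.961), respiratory chain subunits (1.15) and lysosomal genes (2.82). Sequencing depth behind single FPKM values is unknown, which limits the genes near 1 FPKM most.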

Other observations

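Some of the largest differences were of genes with no value given so far. Ubd, a ubiquitin-like modifier induced by inflammatory cytokines, was at 0.65, 0.821, 2.25, 0.634 and 0.756 FPKM on chow and 63.2, 48.7, 100, 69.4 and 40.4 FPKM on CDAHFD (log2 difference 5.0 ± 0.25, adjusted p = 2.77e-12). Ly6d, a surface protein best known from lymphoid progenitors and epithelium, was at 3.74, 6.8, 3.16, 2.87 and 5.6 FPKM on chow and 170, 185, 193, 149 and 143 FPKM on CDAHFD (log2 difference 5.0 ± 0.22, adjusted p = 8.01e-13). Cyp2c54, a cytochrome P450 of the pericentral list with close paralogs, was at 242, 275, 319, 276 and 233 FPKM on chow and 7.92, 3.82, 4.2, 7.15 and 5.97 FPKM on CDAHFD (log2 difference -5.34 ± 0.23, adjusted p = 6.07e-13). None of these genes overlapped between the diets. Of 13 tested vitamin A genes 4 rose and 2 fell (medians 0.24 and -0.26), beside 30.5% and 10.3% of all tested genes. Among those that fell was Rdh16, a hepatocyte retinol dehydrogenase (-1.0 ± 0.16). Of 34 tested subunits of the respiratory chain 2 rose and 1 fell (median log2 difference 0.27 as deposited and -0.30 after scaling), beside the same shares of all tested genes. Among 267 tested long noncoding RNAs 47 rose and 59 fell, beside 30.5% and 10.3% of all tested genes.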
